A study of Mus musculus with 14 samples.

Results

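The tumor necrosis factor (TNF) superfamily ligands and receptors were examined in plexiform neurofibromas (PNs), benign peripheral nerve tumors, and in control nerve tissue. Members were taken by symbol: every gene named with the Tnfsf or Tnfrsf stem and a number, together with Tnf, Fas, Fasl, Cd40, Cd40lg, Ltb, Lta, Ltbr and Cd27. This rule found 41 of the 24062 genes in the count table. Bulk RNA-seq libraries came from 14 mice. The 3 control libraries (DRG3, DRG4 and DRG5) were dorsal root ganglia (DRGs) with their nerve roots and proximal trunks from Nf1 fl/fl mice, which carry the floxed Nf1 alleles without Cre. The 5 slow-growing PNs (1079, 1198A, 1202, 1203 and 1206) and the 6 fast-growing PNs (1053, 1071, 1179, 1191, 1214 and 1216) came from DhhCre;Nf1 fl/fl mice, in which Cre driven by Dhh removes Nf1 in the Schwann cell (SC) lineage while other cells of the tumor keep the gene. All mice were on a mixed C57BL/6, I-129 and FVBN background, none was given a drug, and tissue was collected at 9 months of age. Growth had been scored by MRI at 7 and 9 months: a PN that gained over 35 mm3 was called fast growing, and one that changed by less than 5 mm3 was called slow growing. The PN and control groups therefore differ in genotype and in tissue, and these cannot be told apart here.

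Ligands of the TNF superfamily are mostly membrane proteins that act as trimers, on neighboring cells or after proteases shed them, and they cluster receptors at the cell surface. Some receptors, such as Fas and TNF receptor 1, carry a death domain and can start apoptosis, others recruit TRAF adaptors and turn on NF-κB, and decoy receptors bind ligand without a full signal. In nerve and tumor tissue lymphocytes and macrophages express many of these genes, while SCs, neurons, fibroblasts and endothelial cells express others.

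Libraries held between 9596773 and 17594164 counts on genes, so 3 counts correspond to 0.166 to 0.317 CPM, the read count corrected for library size. Levels are CPM after TMM scaling, and groups were compared with edgeR's quasi-likelihood test across all genes with Benjamini-Hochberg adjustment; a gene was called at an adjusted p under 0.05. Nf1 counts, which cover the whole gene and not only its floxed part, ranged from 131 to 229 CPM in controls, from 224 to 293 CPM in slow-growing PNs and from 225 to 276 CPM in fast-growing PNs, so they do not show the deletion. The 3 controls were not alike. Neutrophil markers summed to 1623 CPM in DRG5, 255 CPM in DRG3 and 112 CPM in DRG4, and to 51.7 to 325 CPM in PNs. Summed B and plasma cell markers stood at 308 CPM in DRG4 and 383 CPM in DRG5 but at 11.4 CPM in DRG3, and summed T and NK cell markers stood at 381, 225 and 7.60 CPM in the same order. SC markers summed to 13732 CPM in DRG3 and to 5084 and 4622 CPM in DRG4 and DRG5, within or below the PN range of 8193 to 21944 CPM. Skeletal muscle markers reached 12526 to 44178 CPM in controls against 92.8 to 14308 CPM in PNs, and fat markers 4215 to 6054 CPM against 87.0 to 3315 CPM. Sensory neuron markers summed to 19.6 CPM in fast-growing PN 1191 and to 10045 CPM in slow-growing PN 1203. In bulk tissue, fewer cells of a type and less RNA per cell cannot be told apart.

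Most members were low. A total of 25 of the 41 had 3 or more counts in all 14 libraries, and 8 were too low to be tested in any comparison: Cd40lg, Fasl, Tnfrsf17, Tnfrsf8, Tnfsf12Tnfsf13, Tnfsf14, Tnfsf18 and Tnfsf4. Between genes, levels were compared per kilobase of the longest annotated transcript. On that scale the highest member in every group was Tnfrsf21, which encodes death receptor DR6, at 22.5 ± 9.12 CPM per kb in controls (SD, n = 3). In PNs it was 38.1 ± 17.5 with slow growth (SD, n = 5) and 33.8 ± 11.8 with fast growth (SD, n = 6). Tnfrsf1a, the gene of TNF receptor 1, came next at 16.6 ± 2.54, 12.2 ± 7.09 and 23.9 ± 7.09 CPM per kb in the same order. The spreads of these 2 genes overlapped in controls and in fast-growing PNs. Ligands stood lower: Tnfsf10, which encodes TRAIL, reached 7.26 ± 4.19 CPM per kb in controls and Tnfsf12, which encodes TWEAK, 6.12 ± 0.798, while Tnf itself reached 1.03 CPM per kb in controls and 0.323 and 0.580 in slow- and fast-growing PNs.

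When all 11 PNs were compared with controls, 4 of the 33 members tested were called, and all 4 were lower in PNs: Tnfrsf4, Tnfrsf19, Tnfrsf9 and Tnfrsf13c. Of all 16283 genes tested, 26.3% were called, 12.9% higher and 13.4% lower. Slow-growing PNs against controls gave 1 call among 30 members, Tnfrsf4, which was lower, against a background of 11.3% of genes called (4.12% higher and 7.13% lower). Fast-growing PNs against controls gave 4 calls among 31 members, with Tnfrsf12a higher and Fas, Tnfrsf19 and Tnfrsf4 lower, against a background of 31.4% (14.8% higher and 16.7% lower). The share of members called was thus below the background in each comparison with controls. All 6 genes called at least once are receptors, as are most of the members tested. The median log2 fold change of the members tested was −0.22 in all PNs, −0.63 with slow growth and −0.10 with fast growth, against 0.10, 0.04 and 0.02 over all genes. In slow-growing PNs 28 of 30 members lay below 0, while 52.2% of all genes tested lay above 0. These comparisons share the same 3 controls. All 4 calls in PNs were lost when muscle and fat marker sums were added as covariates. The calls over all genes then fell from 4283 to 525 (3.22%). Fat sums did not overlap between PNs and controls, so that fit cannot separate them from group. In that fit the log2 fold change was −0.22 for Tnfrsf19, down from −1.47 in size, but −3.44 for Tnfrsf13c, −3.17 for Tnfrsf9 and −2.75 for Tnfrsf4, no smaller than without the covariates.

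**Figure D1:**
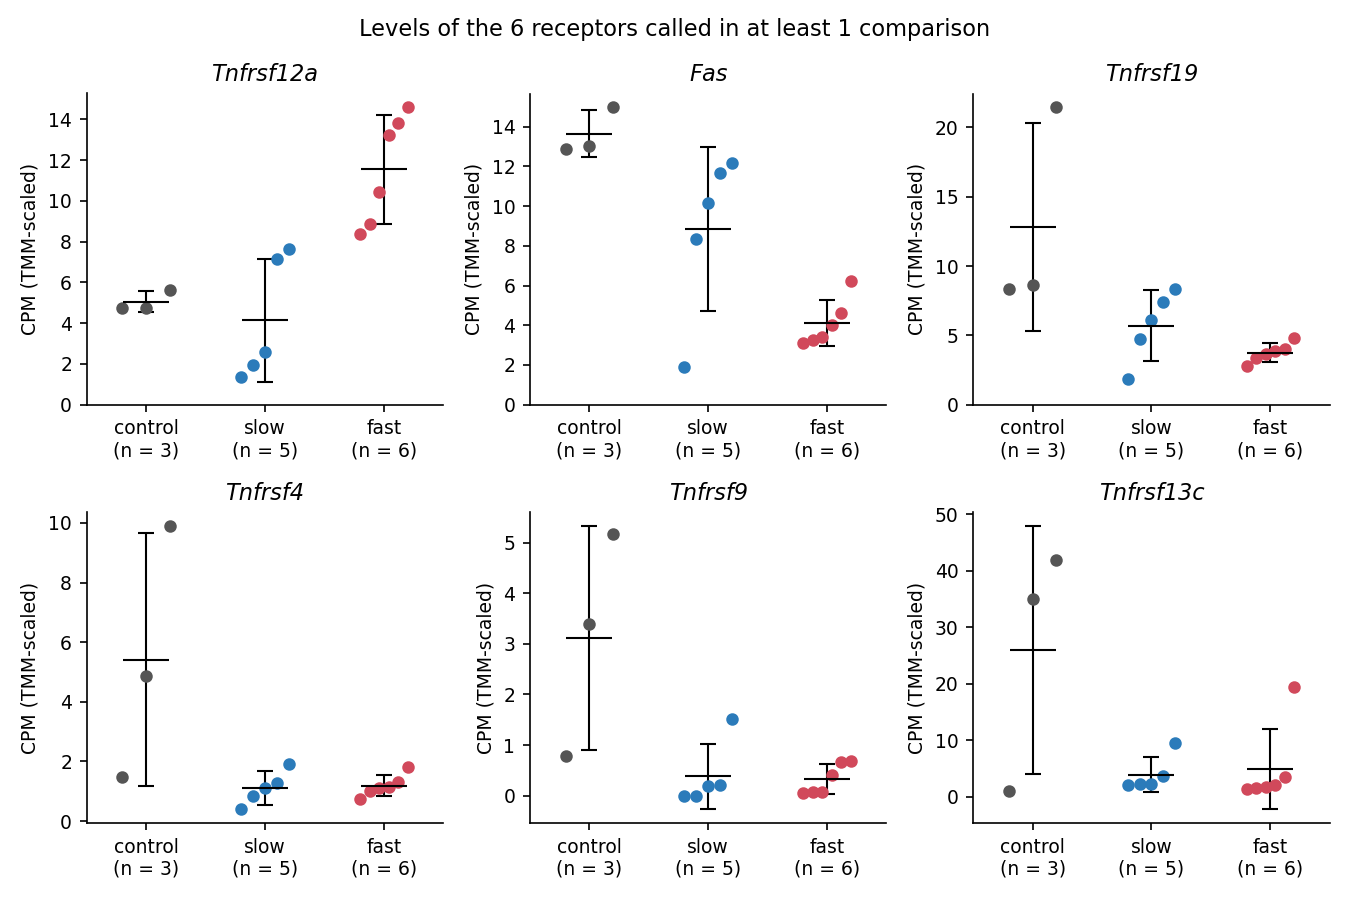
TMM-scaled CPM (linear axis) of the 6 receptors called in at least 1 comparison, with 1 point per library in control DRGs (n = 3), slow-growing PNs (n = 5) and fast-growing PNs (n = 6), a bar at the mean and error bars of 1 SD. The 6 fast-growing PNs lie above every other library for Tnfrsf12a, between 8.37 and 14.6 CPM, while the controls split for Tnfrsf4, Tnfrsf9 and Tnfrsf13c because DRG3 lies low.

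Tnfrsf12a, which encodes the TWEAK receptor Fn14, was the only member called higher in any comparison. Its level was 4.75, 5.64 and 4.76 CPM in DRG3, DRG4 and DRG5. In slow-growing PNs 1079, 1198A, 1202, 1203 and 1206 it was 2.58, 7.66, 1.93, 1.37 and 7.14 CPM. The 6 fast-growing PNs ranged from 8.37 to 14.6 CPM with a median of 11.9 CPM. Every fast-growing PN thus lay above every control and every slow-growing PN, whereas slow-growing PNs fell on both sides of the controls. Against controls, the mean rose to 11.6 ± 2.68 CPM in fast-growing PNs (SD, n = 6) from 5.05 ± 0.510 (SD, n = 3), a log2 fold change of 1.15 (SE 0.25, adjusted p = 0.00718 by edgeR). The call held with any 1 library left out, and was lost in 1 fit over all 14 libraries (1.19, adjusted p = 0.0780), with muscle and fat sums as covariates (0.42) and with DRG4 and DRG5 both left out (1.28, adjusted p = 0.0929). In slow-growing PNs the log2 fold change was −0.32 (SE 0.58, adjusted p = 0.719). Tnfsf12, its ligand gene, ranged from 7.77 to 10.02 CPM in controls, from 3.10 to 11.6 CPM in slow-growing PNs and from 8.14 to 12.4 CPM in fast-growing PNs, and was called in no comparison. Tnfsf12 and Tnfsf13 share exons with the readthrough gene Tnfsf12Tnfsf13, so how reads were divided among these 3 is uncertain; the readthrough gene held counts only in controls, at 1.21, 0.0924 and 0.423 CPM in DRG3, DRG4 and DRG5.

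Fibroblast markers moved in the same libraries. Their sum was 5919 to 10731 CPM in fast-growing PNs, 1763 to 5969 CPM in slow-growing PNs and 2185 to 4103 CPM in controls, and 7 of 10 fibroblast markers were called higher in fast-growing PNs, against 14.8% of all genes. Slow-growing PN 1203 had both the lowest fibroblast sum and the lowest Tnfrsf12a level. With the fibroblast sum as a covariate, the log2 fold change of Tnfrsf12a against controls was 0.20 (adjusted p = 0.891 by edgeR). In that fit 0 members (3 at an unadjusted p under 0.05) and 0.779% of all genes were called. Fibroblast sums did not overlap between fast-growing PNs and controls, so that fit cannot separate them from group.

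Fas, the death receptor of Fas ligand, moved the other way. It was 12.9, 13.0 and 15.0 CPM in DRG3, DRG4 and DRG5. In slow-growing PNs 1079, 1198A, 1202, 1203 and 1206 it was 12.2, 10.1, 8.33, 1.92 and 11.7 CPM. The 6 fast-growing PNs ranged from 3.11 to 6.20 CPM with a median of 3.72 CPM. All 11 PNs lay below all controls, and slow-growing PN 1203 was the lowest library of all. Fast-growing PNs fell by 1.78 on the log2 scale against controls (SE 0.25, adjusted p = 0.000684 by edgeR), to 4.10 ± 1.17 CPM (SD, n = 6) from 13.6 ± 1.19 (SD, n = 3). This call held with any 1 library left out and also with DRG4 and DRG5 both left out. It was lost with the fibroblast sum as a covariate (−2.64, adjusted p = 0.0937) and with muscle and fat sums as covariates (−1.40, adjusted p = 0.929). In slow-growing PNs the log2 fold change was −0.66 (SE 0.48, adjusted p = 0.371), and over all PNs it was −1.13 (SE 0.45, adjusted p = 0.0795). Groups that did not overlap were counted for 1 of 33 members in all PNs (Fas) against 17.7% of all genes, for 1 of 30 in slow-growing PNs (Fas) against 23.4%, and for 3 of 31 in fast-growing PNs (Tnfrsf12a, Fas and Tnfrsf19) against 32.4%. Fasl, the ligand gene, held few reads and was not tested; its highest level was 2.22 CPM in DRG4, and 2 of the slow-growing PNs and 1 fast-growing PN had none.

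The proximal promoters of these 2 receptors are shown because their genes were called in opposite directions in fast-growing PNs. Each window is the 250 bases before the RefSeq transcription start in GRCm38.p6, read 5′ to 3′ on the gene's strand, and 31 of the 41 members had an entry. Capitals mark 2 motifs searched on both strands: the AP-1 motif TGANTCA and the GC box GGGCGG, which reads CCGCCC on the other strand.
Tnfrsf12a, chr17:23677450-23677699, minus strand: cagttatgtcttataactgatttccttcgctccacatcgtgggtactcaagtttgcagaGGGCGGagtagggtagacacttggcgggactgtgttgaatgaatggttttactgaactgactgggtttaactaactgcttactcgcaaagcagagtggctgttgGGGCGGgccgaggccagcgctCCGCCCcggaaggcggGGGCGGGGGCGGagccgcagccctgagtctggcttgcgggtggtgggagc
Fas, chr19:34290409-34290658, plus strand: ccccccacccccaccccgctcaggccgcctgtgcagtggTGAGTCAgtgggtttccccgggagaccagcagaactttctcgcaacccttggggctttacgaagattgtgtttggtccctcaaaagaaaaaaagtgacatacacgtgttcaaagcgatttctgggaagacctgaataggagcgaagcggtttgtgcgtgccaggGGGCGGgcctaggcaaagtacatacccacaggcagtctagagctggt
The Tnfrsf12a window held 5 GC box matches and no AP-1 match, and the Fas window held 1 of each, its AP-1 match starting 211 bases before the transcription start. Of all 32851 promoter windows of this length, 32.7% held the GC box and 6.75% held the AP-1 motif. Among the 31 members, 15 and 6 had a match in any window. Windows and genes are unlike units, so these counts are not read as an excess. These matches describe letters only and no binding was measured.

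Tnfrsf19, which encodes the receptor TROY of the nervous system and embryonic skin, fell in the pooled PNs and in the fast-growing ones. It was 8.64, 8.32 and 21.5 CPM in DRG3, DRG4 and DRG5. In slow-growing PNs 1079, 1198A, 1202, 1203 and 1206 it was 8.36, 1.88, 7.41, 6.11 and 4.73 CPM. Fast-growing PNs ranged from 2.82 to 4.83 CPM with a median of 3.75 CPM, and all lay below the controls, while slow-growing PN 1079 overlapped them. Against controls the log2 fold change was −1.47 in all PNs (SE 0.37, adjusted p = 0.00980 by edgeR) and −1.83 in fast-growing PNs (SE 0.32, adjusted p = 0.00231). In slow-growing PNs it was −1.205 (SE 0.49, adjusted p = 0.143), which was not called. DRG5 carried part of this difference: without it the value in all PNs was −0.87 (adjusted p = 0.181), while the call in fast-growing PNs held with any 1 library left out. With muscle and fat sums as covariates the values shrank to −0.22 in all PNs (adjusted p = 0.826) and −0.29 in fast-growing PNs. With DRG3 as the only control the value in fast-growing PNs was −1.198 (adjusted p = 0.0595). Tnfrsf21 (DR6), the most abundant member, was 119, 71.5 and 54.9 CPM in the controls, 82.5 to 240 CPM in slow-growing PNs and 75.8 to 183 CPM in fast-growing PNs. Its log2 fold change in all PNs was 0.67 (SE 0.35, adjusted p = 0.18), and its highest library, slow-growing PN 1203, also had the highest sensory neuron sum. Tnfrsf25, which encodes death receptor DR3, lay between 0.548 and 7.25 CPM over all libraries and was called in no comparison.

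Tnfrsf4, Tnfrsf9 and Tnfrsf13c, receptors of lymphocytes, split the controls. Tnfrsf4 encodes the T cell costimulatory receptor OX40. It was 1.47, 9.89 and 4.86 CPM in DRG3, DRG4 and DRG5, and 1.29, 0.827, 0.406, 1.10 and 1.93 CPM in slow-growing PNs 1079, 1198A, 1202, 1203 and 1206. Fast-growing PNs ranged from 0.739 to 1.83 CPM with a median of 1.12 CPM. DRG3 thus lay among the PNs, and DRG4 and DRG5 lay above all of them. The log2 fold change of Tnfrsf4 was −2.22 in all PNs (SE 0.42, adjusted p = 0.00168 by edgeR), −2.32 in slow-growing PNs (SE 0.63, adjusted p = 0.0495) and −2.23 in fast-growing PNs (SE 0.50, adjusted p = 0.00839). Without DRG4 these became −1.44 (adjusted p = 0.0516), −1.53 (adjusted p = 0.253) and −1.46 (adjusted p = 0.0690), and with DRG3 as the only control −0.34 (adjusted p = 0.856), −0.42 (adjusted p = 0.943) and −0.29 (adjusted p = 0.795). With the summed T, NK, B and plasma cell markers as a covariate they were −1.50 (adjusted p = 0.0290), −1.50 (adjusted p = 0.221) and −1.33 (adjusted p = 0.0301), so the calls in all PNs and in fast-growing PNs held. With the fibroblast sum as a covariate the value in fast-growing PNs was −0.18 (adjusted p = 0.971). The call in slow-growing PNs was also lost without DRG5 and without each of the 5 slow-growing PNs in turn, at adjusted p of 0.0568 to 0.142. limma-voom called it in all PNs but neither in slow-growing PNs (−2.01, adjusted p = 0.115) nor in fast-growing PNs (−1.83, adjusted p = 0.0501).

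Tnfrsf9 encodes a costimulatory receptor of activated T and NK cells. It was 0.778, 5.18 and 3.38 CPM in DRG3, DRG4 and DRG5, and 1.52, 0, 0.203, 0.183 and 0 CPM in slow-growing PNs in the order given above. Fast-growing PNs ranged from 0.0553 to 0.681 CPM with a median of 0.238 CPM, close to the level of 3 counts. DRG4 and DRG5 were again above every PN. The log2 fold change in all PNs was −3.11 (SE 0.85, adjusted p = 0.0154 by edgeR), and without slow-growing PN 1079 the gene no longer passed the filter and was not tested. It was −2.53 without DRG4 (adjusted p = 0.121) and −3.05 without DRG5 (adjusted p = 0.0639). With DRG3 as the only control it was −1.12 (adjusted p = 0.795), and with the T, NK, B and plasma cell sum as a covariate it was −2.18 (adjusted p = 0.0266), still called. Its ligand gene Tnfsf9 lay between 1.30 and 2.96 CPM in controls and between 0.0913 and 2.42 CPM in PNs and was called in no comparison.

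Tnfrsf13c encodes the BAFF receptor of B cells. It was 0.950, 34.9 and 42.0 CPM in DRG3, DRG4 and DRG5. In slow-growing PNs 1079, 1198A, 1202, 1203 and 1206 it was 9.42, 2.18, 2.03, 2.28 and 3.66 CPM. Fast-growing PNs had a lowest value of 1.43, a median of 1.93 and a highest value of 19.4 CPM, the last in 1179. The library with the lowest Tnfrsf13c level was therefore a control, and so were the 2 highest. Over all PNs the log2 fold change was −2.53 (SE 0.81, adjusted p = 0.0317 by edgeR). limma-voom did not call it (−1.79, adjusted p = 0.202). Without DRG4 it was −2.26 (adjusted p = 0.133), without DRG5 it was −2.0 (adjusted p = 0.194), and with DRG3 as the only control it turned to 2.23 (adjusted p = 0.553). Summed B and plasma cell markers, which do not include Tnfrsf13c, were 308 and 383 CPM in DRG4 and DRG5, 182 CPM in fast-growing PN 1179 and 92.2 CPM in slow-growing PN 1079, and 11.4 to 37.0 CPM in the other 10 libraries. With the T, NK, B and plasma cell sum as a covariate the value was −0.41 (adjusted p = 0.618), and the other 3 members called in all PNs kept their calls in that fit, 3 of 33 against 21.3% of all genes. Tnfsf13b, the gene of the ligand BAFF, ranged from 1.73 to 4.44 CPM in controls, 1.004 to 5.34 CPM in slow-growing PNs and 2.15 to 6.25 CPM in fast-growing PNs.

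The same control split ran through other members. Tnf was 0, 2.96 and 2.11 CPM in DRG3, DRG4 and DRG5, Lta, the gene of lymphotoxin α, was 0, 3.14 and 2.11 CPM, and Ltb, the gene of lymphotoxin β, was 0.0864, 5.92 and 3.91 CPM. Cd40lg, the CD40 ligand of activated T cells, was 0, 2.03 and 1.90 CPM, and Cd27, a costimulatory receptor, was 2.77, 28.7 and 11.2 CPM. Each of these 5 genes was at or below 2.77 CPM in DRG3 and higher in both other controls. A total of 16 of the 41 members were over 3 times higher in both DRG4 and DRG5 than in DRG3. Among genes averaging 0.5 CPM or more this held for 14 of 35 members and for 5.61% of all 16271 genes. In PNs, Tnf ranged from 0 to 1.76 CPM, Lta from 0 to 1.24 CPM and Ltb from 0 to 2.93 CPM, each highest in fast-growing PN 1179. The log2 fold changes over all PNs were −1.13 for Tnf (SE 0.80, adjusted p = 0.322 by edgeR), −2.65 for Lta (SE 1.07, adjusted p = 0.0791) and −2.52 for Ltb (SE 0.97, adjusted p = 0.0679), so none was called. Without DRG3, 12 members were called in all PNs and 12 in fast-growing PNs, and 10 in slow-growing PNs, with Lta and Ltb among those in all PNs and Tnf among those in fast-growing PNs. The shares of all genes called in these fits were 25.7%, 31.9% and 15.3% in the same order, against 33.3%, 33.3% and 27.8% of the members tested. With DRG3 as the only control, 0 members were called in all PNs (1 at an unadjusted p under 0.05), 0 in slow-growing PNs (0 at an unadjusted p under 0.05), and 2 in fast-growing PNs, Fas and Tnf. That lone control was assumed to vary like the other libraries, and 3.70%, 0.0243% and 9.30% of all genes were called. The direction of Tnf turned between these fits. It was called lower in fast-growing PNs without DRG3 and higher with DRG3 alone, in which it had 0 counts, so no fold is given.

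**Figure D2:**
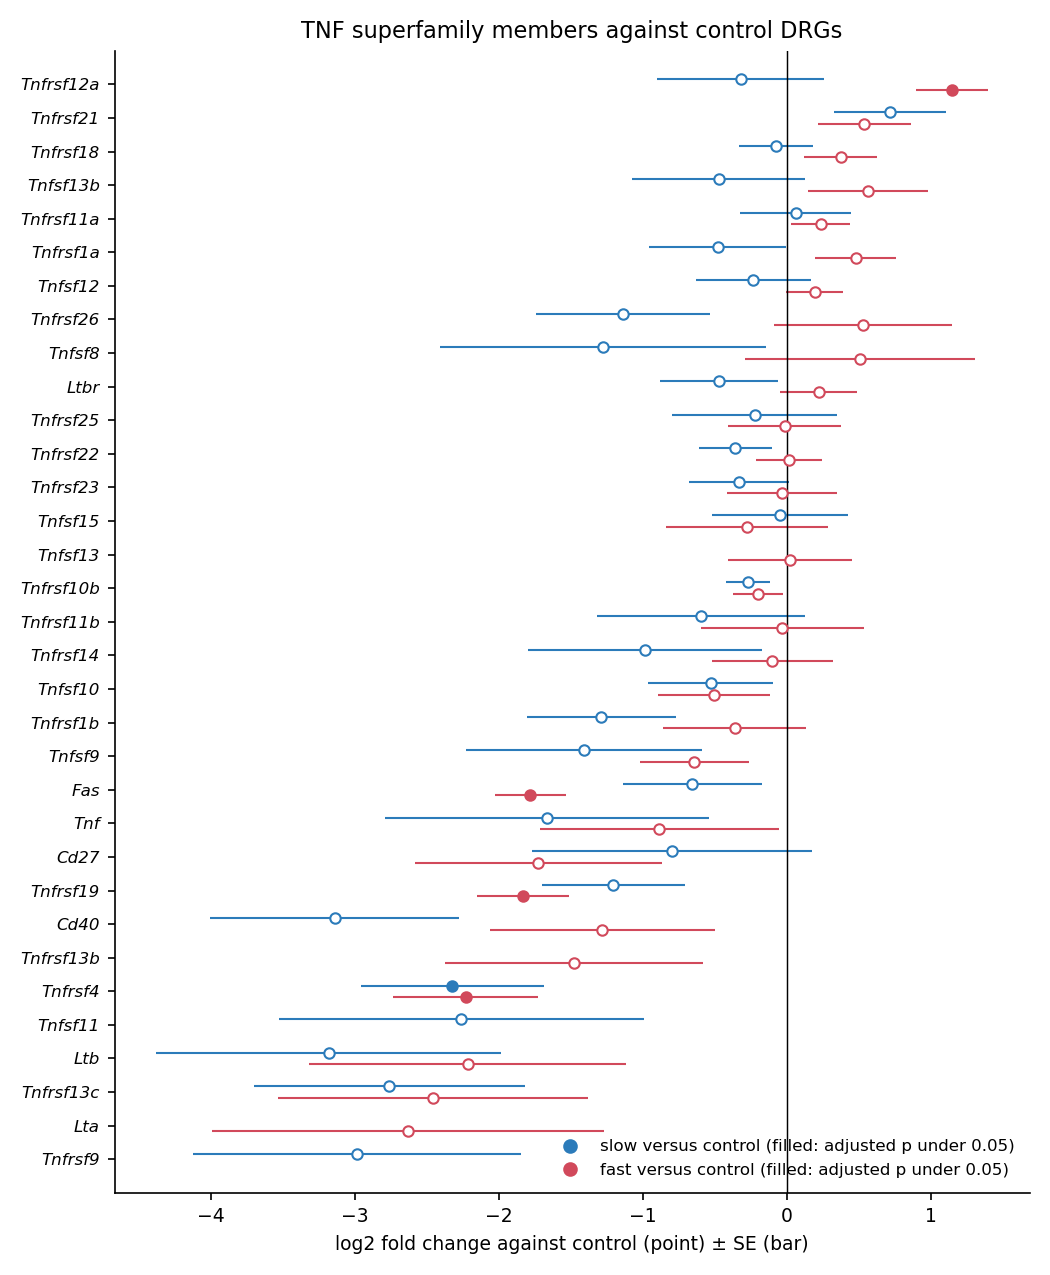
Log2 fold change against controls (points, linear axis) with its standard error (bars) for each member tested in slow-growing PNs (blue) and fast-growing PNs (red), ordered by the value in all PNs, with filled points at an adjusted p under 0.05. Tnfrsf12a at 1.15 is the single filled point above 0, and the longest bar is that of Lta in fast-growing PNs (SE 1.36).

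**Figure D3:**
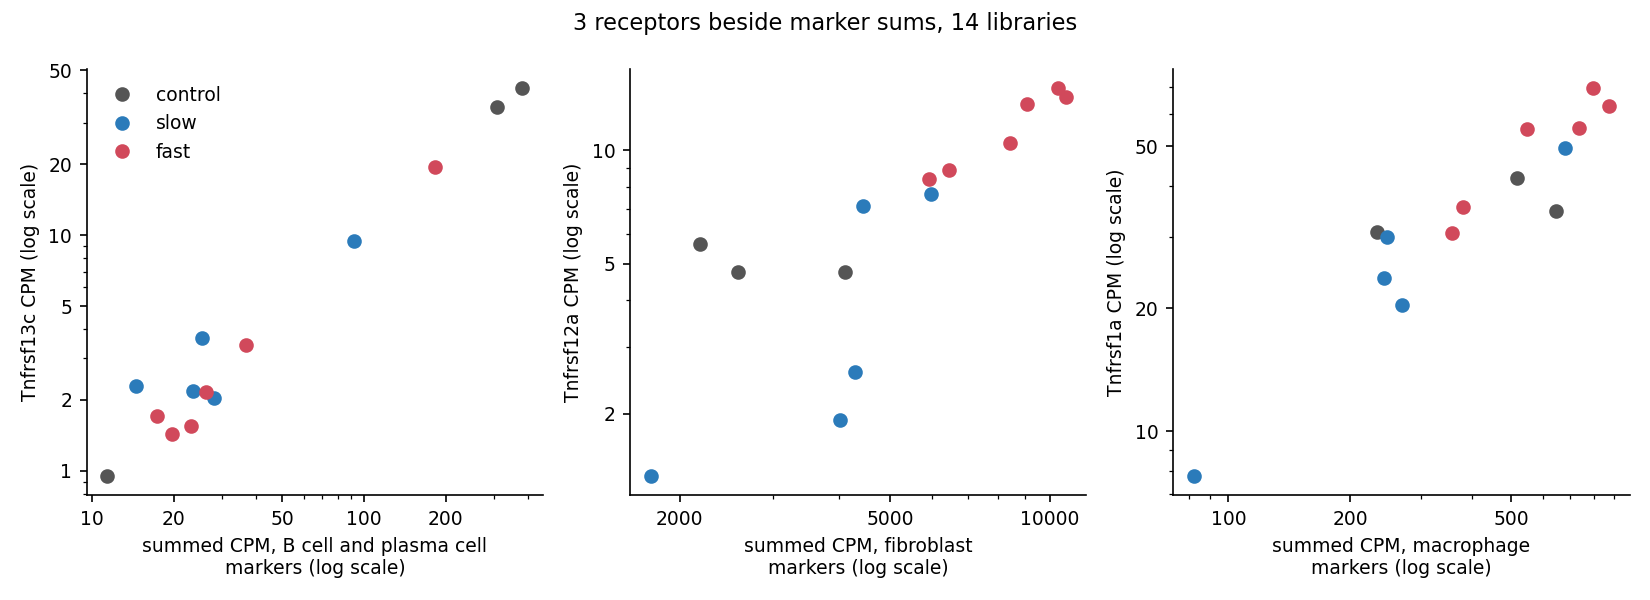
CPM of 3 receptors (log axis) against the summed CPM of B and plasma cell, fibroblast and macrophage markers (log axis), 1 point per library and 14 in all, colored by group. Tnfrsf13c is highest in the 4 libraries with a B and plasma cell sum of 92.2 CPM or more, Tnfrsf12a is highest in the fast-growing PNs, and the lowest Tnfrsf1a level, 7.76 CPM, is in the library with the lowest macrophage sum.

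Receptors for TNF and lymphotoxin did not differ from controls past the test. Tnfrsf1a was 30.8, 34.7 and 41.7 CPM in DRG3, DRG4 and DRG5, 20.4, 49.4, 23.8, 7.76 and 29.9 CPM in slow-growing PNs 1079, 1198A, 1202, 1203 and 1206, and 30.6 to 69.3 CPM with a median of 55.3 CPM in fast-growing PNs. Tnfrsf1b, the gene of TNF receptor 2 of immune and endothelial cells, was 9.94, 51.8 and 30.7 CPM in controls, 11.7, 21.7, 11.9, 6.21 and 13.5 CPM in slow-growing PNs, and 13.3 to 38.2 CPM with a median of 24.0 CPM in fast-growing PNs. Ltbr, the lymphotoxin β receptor gene, was 11.4 to 14.3 CPM in controls, 3.83 to 15.4 CPM in slow-growing PNs and 10.2 to 20.6 CPM in fast-growing PNs. In all 3 genes the lowest library was slow-growing PN 1203, which also had the lowest macrophage marker sum at 82.1 CPM against 233 to 873 CPM elsewhere. The log2 fold change of Tnfrsf1a was −0.48 in slow-growing PNs (SE 0.47, adjusted p = 0.502 by edgeR) and 0.48 in fast-growing PNs (SE 0.28, adjusted p = 0.234). Cd40, a receptor of B cells, macrophages and dendritic cells, was 0.518, 13.9 and 8.46 CPM in controls, 0.274 to 1.60 CPM in slow-growing PNs and 1.16 to 5.90 CPM in fast-growing PNs. Its log2 fold change in slow-growing PNs was −3.14 (SE 0.87, adjusted p = 0.0512).

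Genes of the TRAIL and RANK systems were called in no comparison. Tnfsf10 (TRAIL) was 14.5, 56.2 and 38.1 CPM in controls and 16.1 to 42.8 CPM in PNs. Tnfrsf10b, the mouse TRAIL death receptor, was 31.6, 43.8 and 41.1 CPM in controls, 31.9 to 34.7 CPM in slow-growing PNs and 29.5 to 43.9 CPM in fast-growing PNs. Tnfrsf22 and Tnfrsf23, which encode decoy TRAIL receptors, lay between 3.19 and 6.98 CPM and between 3.19 and 8.62 CPM over all libraries, with the caution that these 2 and Tnfrsf26 are neighboring paralogs and that reads may have been split among them. Tnfrsf11a, the RANK gene, ranged from 23.4 to 36.1 CPM in controls and from 14.7 to 53.3 CPM in PNs, while its ligand gene Tnfsf11 was at most 2.64 CPM and was 0 in DRG3. Tnfrsf11b, which encodes the decoy osteoprotegerin, lay between 0.365 and 3.83 CPM. Tnfrsf14, which encodes the LIGHT receptor HVEM, ranged from 1.99 to 7.12 CPM in controls and from 0.274 to 6.31 CPM in PNs. The members not described singly were at most 16.0 CPM in any library, the highest being Tnfrsf18, and none was called.

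When fast-growing PNs were compared with slow-growing PNs, 0 of 28 members were called by edgeR, against a background of 1.27% of genes (0.802% higher and 0.466% lower). At an unadjusted p under 0.05 there were 7 members, 6 higher and 1 lower in fast-growing PNs, against 20.4% of all 15465 genes. DESeq2 called 3 members, Tnfrsf12a, Cd40 and Tnfrsf26, and limma-voom called 0, while over all genes DESeq2 called 10.3% and limma-voom 0.220%. The DESeq2 share among the members, 10.7%, was thus close to its own background. The median log2 fold change was 0.45 over the 28 members and −0.03 over all genes. Of the 28 members, 23 lay above 0, against 46.5% of all genes tested. Tnfrsf26, an orphan receptor gene, had the lowest p: 3.27, 4.28, 2.03, 1.004 and 2.41 CPM in slow-growing PNs 1079, 1198A, 1202, 1203 and 1206, and 3.77 to 13.6 CPM with a median of 7.78 CPM in fast-growing PNs. Its log2 fold change was 1.67 (SE 0.45, adjusted p = 0.0722). Cd40 was 1.60, 1.202, 0.508, 0.274 and 0.771 CPM in the same slow-growing PNs and 1.16 to 5.90 CPM with a median of 2.39 CPM in the fast-growing ones, and its log2 fold change was 1.87 (SE 0.54, adjusted p = 0.0833). Tnfrsf12a followed at 1.48 (SE 0.44, adjusted p = 0.0890). Only Tnfrsf12a had groups that did not overlap, 1 of 28 members against 3.01% of all genes. Fas was the 1 lower member, at −1.11 (SE 0.39, adjusted p = 0.135).

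Single libraries weighed on this comparison. Slow-growing PN 1203 was the lowest slow-growing library for 21 of the 28 members, and fast-growing PN 1191 was the highest fast-growing library for 10. The shares over all genes were not counted, so these counts are not read as particular to the members. Without slow-growing PN 1198A, which had the highest macrophage and fibroblast sums of its group (679 and 5969 CPM), 4 members were called: Tnfrsf12a (1.83, adjusted p = 0.0314), Tnfrsf26 (1.93, adjusted p = 0.0369), Tnfrsf19 and Tnfsf13b, against 7.65% of all genes in that fit. Without slow-growing PN 1203, Fas was called and no other member was, against 3.70% of all genes. With the fibroblast sum as a covariate the values fell to 0.35 for Tnfrsf12a (adjusted p = 0.662), 0.39 for Cd40 (adjusted p = 0.753) and 0.10 for Tnfrsf26 (adjusted p = 0.881), and Fas alone was called, against 0.976% of all genes. Macrophage sums ranged from 357 to 873 CPM in fast-growing PNs and from 82.1 to 679 CPM in slow-growing PNs, and their part in these differences was not tested.

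**Figure D4:**
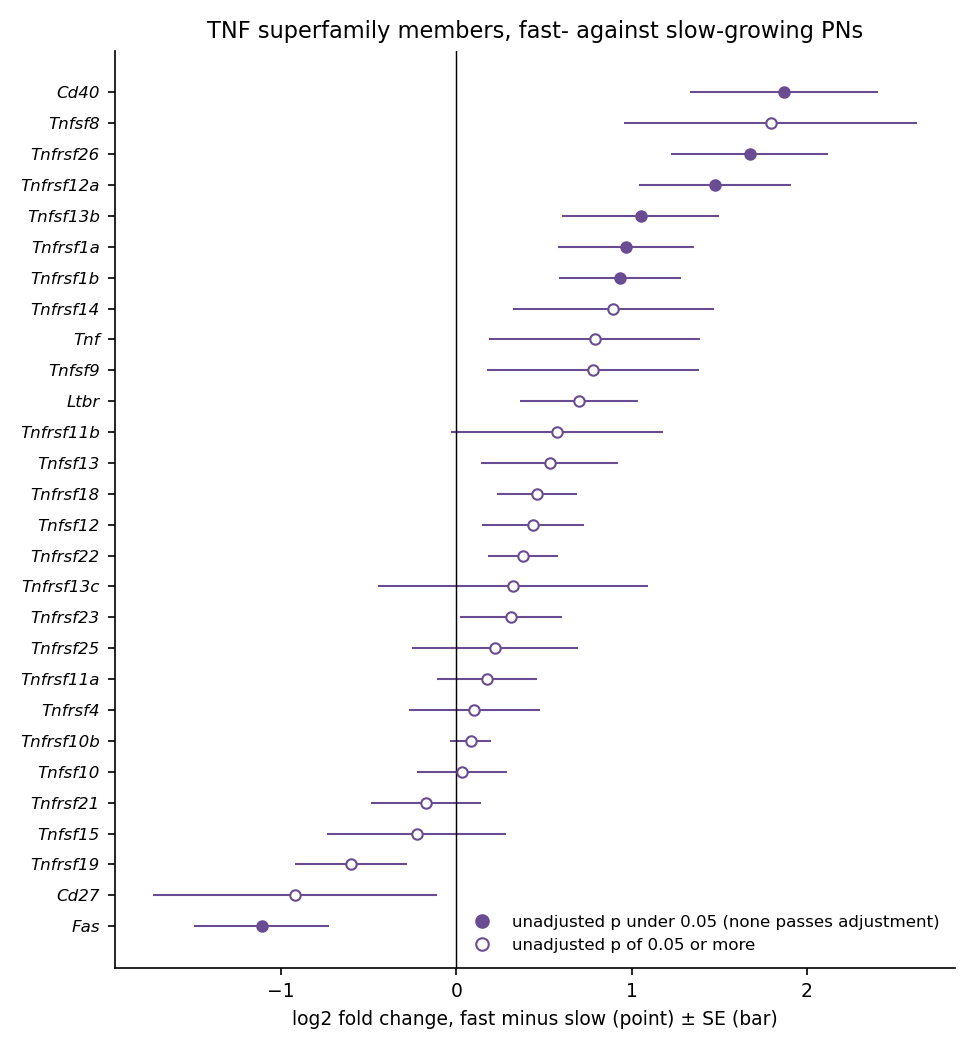
Log2 fold change of fast-growing minus slow-growing PNs (points, linear axis) with its standard error (bars) for the 28 members tested, with filled points at an unadjusted p under 0.05. Of the 28 points, 23 lie to the right of 0, against 46.5% of all genes tested, and none of the 28 passed the adjusted threshold.

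Genes of the superfamily whose names fall outside the rule were examined with the members. Relt, which encodes a TNF receptor family protein of hematopoietic tissue, was 8.55, 9.52 and 9.09 CPM in controls, 3.57 to 6.80 CPM in slow-growing PNs and 2.05 to 4.16 CPM in fast-growing PNs. It was lower in every PN than in every control, with a log2 fold change of −1.12 (SE 0.25, adjusted p = 0.00544 by edgeR). Unlike the calls of members, this call was not followed through the alternative fits. Eda2r, the receptor of the A2 form of ectodysplasin, was 1.64, 4.71 and 7.30 CPM in controls and 2.01 to 8.27 CPM in slow-growing PNs. It was 6.80 to 23.8 CPM in fast-growing PNs (1.55, SE 0.53, adjusted p = 0.0492 by edgeR). Eda, the ectodysplasin gene, rose by 0.79 in fast-growing PNs (SE 0.26, adjusted p = 0.0419 by edgeR). Neither call held with muscle and fat sums as covariates, but that fit called 0 genes and so says nothing particular to Eda2r or Eda. The fit with the fibroblast sum called 0.779% of all genes, and the values of Eda2r and Eda in it are not given here. Ngfr, the low-affinity neurotrophin receptor p75 of SCs and sensory neurons, ranged from 27.6 CPM in fast-growing PN 1191 to 482 CPM in slow-growing PN 1203. These are the libraries with the lowest and highest sensory neuron sums, and Ngfr was called in no comparison. Edar and Cd70 stayed at or below 1.16 and 0.529 CPM.

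Of 36 genes for receptor-proximal signalling and ligand shedding, 0 rose and 4 fell in all PNs, where 12.9% of all genes rose and 13.4% fell, and the median log2 fold change was −0.01 against 0.10 over all genes. Traf1, an adaptor gene, fell by 1.89 (SE 0.54, adjusted p = 0.0194 by edgeR), Otulin, a deubiquitinase gene, fell by 0.70 (SE 0.20, adjusted p = 0.0195), and Rbck1, a subunit gene of the linear ubiquitin ligase, fell by 0.41 (SE 0.13, adjusted p = 0.0334). Traf1 was 2.42, 30.3 and 18.7 CPM in DRG3, DRG4 and DRG5, and so was lowest in DRG3, as Tnfrsf4 was. In fast-growing PNs 3 of the 36 rose and 1 fell, against 14.8% and 16.7% of all genes. The 3 that rose were named after their values were seen: Adam17, the protease that releases TNF and its receptors from the membrane, and Rhbdf1 and Rhbdf2, the iRhom genes that serve it. Adam10, the other sheddase of the list, was not called in fast-growing PNs (0.22, SE 0.20, adjusted p = 0.447 by edgeR) and averaged 129 CPM in controls, 222 CPM in slow-growing PNs and 156 CPM in fast-growing PNs. Adam17 was 46.6, 66.1 and 70.0 CPM in the controls, 77.5, 94.1, 53.6, 27.9 and 81.1 CPM in slow-growing PNs 1079, 1198A, 1202, 1203 and 1206, and 103 to 158 CPM with a median of 109 CPM in fast-growing PNs. All fast-growing PNs were above all other libraries. Against controls the log2 fold changes were 0.92 for Adam17 (SE 0.21, adjusted p = 0.00879), 1.82 for Rhbdf1 (SE 0.34, adjusted p = 0.00340) and 0.58 for Rhbdf2 (SE 0.20, adjusted p = 0.0487). With the fibroblast sum as a covariate they were 0.77, 0.35 and 0.63, and none was called (adjusted p of 0.537, 0.801 and 0.602). With muscle and fat sums as covariates they were 1.43, 0.24 and 0.75, in a fit that called 0 genes. The call of Rhbdf2 was also lost with limma-voom (adjusted p = 0.0515), without the filter (0.0674), in 1 fit over all 14 libraries (0.125), with the length and GC trend removed (0.0838), and without each of DRG3, DRG4, DRG5 and fast-growing PNs 1053, 1071, 1191 and 1216 in turn (0.0508 to 0.136). With DRG3 as the only control neither Rhbdf1 (1.24, adjusted p = 0.106) nor Rhbdf2 (1.03, adjusted p = 0.0578) was called. Between fast- and slow-growing PNs the value for Adam17 was 0.84 (SE 0.27, adjusted p = 0.113), which was not called.

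Of 26 genes known to respond to TNF, 23 were tested, of which 0 rose and 5 fell in all PNs, where 12.9% of all genes rose and 13.4% fell, and the median log2 fold change was −0.85 against 0.10 over all genes. The summed level of the list was 441 CPM in DRG3, within the PN range of 237 to 498 CPM, and 866 and 793 CPM in DRG4 and DRG5. Markers of many cell types were called lower in the same comparison. These were 3 of 10 endothelial, 5 of 9 neutrophil, 4 of 9 B and plasma cell, 8 of 15 skeletal muscle and 6 of 13 fat markers. They also included 2 of 9 T and NK cell, 2 of 8 mast cell and 2 of 8 dendritic cell markers. In the other direction, 5 of 12 SC, 2 of 6 satellite glia and 1 of 9 macrophage markers were called higher. The neutrophil sum was above the PN range only in DRG5. Endothelial sums were 420 to 563 CPM in controls, 118 to 544 CPM in slow-growing PNs and 158 to 379 CPM in fast-growing PNs. Sod2, which encodes mitochondrial superoxide dismutase and is also abundant in muscle and brown fat, was 265, 253 and 282 CPM in DRG3, DRG4 and DRG5, 78.1 to 131 CPM in slow-growing PNs and 48.6 to 90.8 CPM in fast-growing PNs. Its groups did not overlap and it fell by 1.65 (SE 0.25, adjusted p = 0.000301 by edgeR), in the same direction as the muscle and fat sums. Ccl5, a T and NK cell chemokine gene, was 1.04, 129 and 37.4 CPM in the controls and 0.0913 to 5.49 CPM in PNs, and fell by 5.16 (SE 0.81, adjusted p = 0.000426), with DRG3 among the PNs. Relb, an NF-κB subunit gene, fell by 1.32 (SE 0.36, adjusted p = 0.0159), and was 7.34 CPM in DRG3, 18.9 in DRG4 and 11.3 in DRG5. In slow-growing PNs 0 of the 23 rose and 6 fell, against 4.12% and 7.13% of all genes. In fast-growing PNs 1 of the 23 rose and 4 fell, against 14.8% and 16.7% of all genes. The 1 that rose was Ccl2, a monocyte chemokine gene named after its value was seen, at a log2 fold change of 2.87 (SE 0.72, adjusted p = 0.0142 by edgeR). It was 3.89 to 4.35 CPM in controls and 2.74 to 16.0 CPM in slow-growing PNs. Fast-growing PN 1191 held 88.4 CPM, and the other fast-growing PNs held 10.7 to 28.1 CPM. In the same comparison 7 of 10 fibroblast markers and 2 of 9 macrophage markers were called higher.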

How the data were processed

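RNA was amplified by the authors (Ovation RNA-Seq System v2). Per the labels' processing notes, CASAVA 1.4, FastQC 0.11.0, TopHat2 2.0.9, featureCounts 1.5.2 and edgeR 3.16.5 were named, with the mm10 build. The deposited values are raw counts of reads per gene, in whole numbers. In 10 columns headed only by a mouse number, the deposited count values were entered under another unit because of that header. They hold whole numbers and were analysed as counts, as in the other columns. A deposited log2 table was not used here. Strand and multi-mapping settings are not given in the sources used here, so members with exons overlapping a gene on the opposite strand (Tnfsf13, Tnfsf9, Tnfrsf18, Tnfrsf23 and Tnfrsf26) or on the same strand (Tnfsf12, Tnfsf13, Cd27) may share reads.

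Counts were analysed in R 4.3.3 with edgeR 4.0.16 (filterByExpr, TMM, quasi-likelihood test, only the libraries of a comparison in the fit, no covariate), tested on simulated data. DESeq2 1.42.0 and limma 3.58.1 were alternatives, with other scaling, filter, threshold, joint fit, covariates, a length and GC trend and left-out libraries. PN preparation and control preparation cannot be told apart, and neither sex nor batch is given per library. Labels do not say whether libraries came from separate litters, so p-values measure the spread between these libraries. Amplified reads are not independent molecules, so the floor of 3 counts covers counting error only. Members, gene lists and tests were chosen with earlier results of these data known. Members given in full were those called in any comparison, the 3 of lowest p in the growth comparison, and 28 picked for their roles, 30 in all. Transcript lengths came from GENCODE vM21 and promoters from RefSeq.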

Additional observations from a re-analysis of the deposited data

Results flagged for a closer look

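In 10 of 60 pairs of a member given in full and a PN group, 1 library stood apart from the rest of its group by Dixon's 95% criterion. All 10 were the highest of their group. About 1 of 20 groups meets this criterion when values are normally distributed, which CPM need not be. The share over all genes was not counted, so 10 of 60 is not read as an excess. Fast-growing PN 1179 stood apart for Tnfrsf13c (19.4 CPM, next 3.40), Ltb (2.93 CPM, next 0.530), Tnf (1.76 CPM, next 0.940) and Lta (1.24 CPM, next 0.454), and had the highest B and plasma cell marker sum of the fast-growing PNs, at 182 CPM. Slow-growing PN 1079 stood apart for Tnfrsf13c (9.42 CPM, next 3.66), Tnfrsf9 (1.52 CPM, next 0.203) and Cd27 (27.8 CPM, next 5.01), and had the highest T and NK cell sum of all PNs, at 284 CPM. Fast-growing PN 1191, with the highest T and NK cell sum of its group at 169 CPM, stood apart for Cd27 (14.1 CPM, next 5.20). Slow-growing PN 1206 stood apart for Tnfsf10 (42.8 CPM, next 24.5). Fast-growing PN 1053 stood apart for Cd40lg (0.387 CPM, next 0.0757), a value that rests on 7 counts. The part of lymphocyte RNA in these values was not tested.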

How the results depend on the processing

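The number of members called in all PNs against controls was 4. It became 2 at an adjusted p under 0.01, 8 without a filter beyond 1 count, 7 in 1 fit over all 14 libraries, and 0 with muscle and fat covariates (6 at an unadjusted p under 0.05) or with DRG3 as the only control. limma-voom also called 4, with Fas in place of Tnfrsf13c. In slow-growing PNs 1 call became 0 at an adjusted p under 0.01, with DESeq2 size factors, limma-voom, muscle and fat covariates, the length and GC trend removed, the lymphocyte covariate or DRG3 alone, 2 without the filter (Tnfrsf13b and Tnfrsf17, while Tnfrsf4 was lost at an adjusted p of 0.0553 by edgeR), and 3 with DESeq2 or 1 fit over all libraries. In fast-growing PNs 4 calls became 3 with limma-voom, which lost Tnfrsf4, 9 without the filter, 0 with muscle and fat covariates (0 at an unadjusted p under 0.05) or the fibroblast covariate, and 2 with DRG3 alone. Between fast and slow growth 0 calls became 3 with DESeq2, 1 with the lymphocyte covariate (Cd40) and 1 with the fibroblast covariate (Fas). With 1 library left out, the counts ranged from 1 to 12 in all PNs, 0 to 10 in slow-growing PNs, 3 to 12 in fast-growing PNs and 0 to 4 between growth groups. Calls over all genes moved by over 1.5 times under these settings: in all PNs from 4283 to 2181 at an adjusted p under 0.01, 525 with muscle and fat covariates and 628 with DRG3 alone; in slow-growing PNs from 1769 to 565, 0 and 4 in the same order, 3529 with DESeq2, 3280 in 1 fit over all libraries and 1047 with the lymphocyte covariate; in fast-growing PNs from 5043 to 2874, 0 and 1564, and 125 with the fibroblast covariate; and between growth groups from 196 to 2 at an adjusted p under 0.01, 0 with muscle and fat covariates, 130 with DESeq2 size factors, 34 with limma-voom, 423 in 1 fit over all libraries and 1592 with DESeq2. With 1 library left out, the last comparison gave 2 to 1194 genes, over 1.5 times from 196 in each case. All PNs gave 2476 without DRG4 and 2061 without DRG5, slow-growing PNs gave 685 and 599 in the same order, 957 without 1079 and 1052 without 1202, and fast-growing PNs gave 3342 without DRG5. Tnfrsf13c in all PNs turned to 2.23 with DRG3 alone, and no other called value changed sign. For members given in full, 93 pairs of a member and a comparison were not called, leaving out the 3 of lowest p between growth groups. Of these 93 pairs, 17 were called and 80 had another sign under at least 1 alternative. The lymphocyte and fibroblast covariates and the fit with DRG3 alone were chosen after seeing the data. Fibroblast sums did not overlap between fast-growing PNs and controls, and fat sums did not overlap between PNs and controls. A call lost with these covariates in a comparison with controls therefore cannot be assigned to either the sum or the group. Other causes of these changes were not tested. Apart from Adam17, Adam10, Rhbdf1 and Rhbdf2, genes outside the rule were not followed singly through these settings, so their calls are less checked than those of members. No paired analysis was possible because the labels give the groups no shared replicate numbers. Members near 3 counts per library, such as Tnfrsf9 in PNs, are limited by depth.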
